A study of Arabidopsis thaliana with 12 samples.

Results

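The brassinosteroid synthesis and inactivation genes described here were chosen by their known role, 7 for synthesis and 1 for inactivation, and are 8 of 23853 genes in the table. DET2 (AT2G38050) is the steroid 5-alpha-reductase, DWF4 (AT3G50660) the C-22 hydroxylase regarded as rate-limiting, and CPD (AT5G05690) a P450 of the CYP90A family. ROT3 (AT4G36380) and CYP90D1 (AT3G13730) are C-23 hydroxylases with shared substrates. BR6OX1 (AT5G38970) and BR6OX2 (AT3G30180) are the C-6 oxidases that make castasterone, and BR6OX2 also carries out the step to brassinolide. BAS1 (AT2G26710) is the C-26 hydroxylase that inactivates the active steroids. All 8 passed the filter of at least 1 FPKM (fragments per kilobase of transcript, scaled to the mapped fragments of the library) in at least 3 libraries, as did 18743 genes in all.

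Brassinosteroids are plant steroid hormones made from campesterol by a chain of reductases and cytochrome P450 enzymes. The final active steroids are recognised at the cell surface by the receptor kinase BRI1, which acts through the kinase BIN2 on the transcription factors BZR1 and BES1. These factors bind upstream of several synthesis genes and lower their transcription when the hormone is plentiful. In roots, brassinosteroids are known for control of cell division in the meristem and of cell elongation, and auxin is known to act on the same tissues.

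RNA came from whole roots of *Arabidopsis thaliana* seedlings germinated for 7 days on half-strength MS medium by the labels, an age that the paper puts 1 day higher. The 4 groups of 3 libraries each were *siz1-2* with 0.5 µM IAA for 3 h, *siz1-2* on MS without IAA, Col-0 with 0.5 µM IAA for 3 h, and Col-0 on MS without IAA. IAA is the natural auxin, and *siz1-2* is a single insertion allele, in the Col-0 background, of the SUMO E3 ligase SIZ1. The study asked whether SIZ1 takes part in the response to auxin, and nothing states whether the 3 libraries of a group came from separate cultures, so p-values measure the spread between libraries only. In whole roots, fewer cells of a type and less RNA per cell cannot be told apart.

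SIZ1 averaged 14.5 ± 1.94 FPKM in *siz1-2* with IAA, against 24.8 ± 3.12 in Col-0 with IAA (SD, n = 3 each), and 14.0 ± 0.738 FPKM in *siz1-2* on MS, against 23.8 ± 2.35 in Col-0 on MS. Its transcript was thus lowered and not absent in the mutant (log2 fold changes of −0.76 and −0.74, limma adjusted p of 0.0034 and 0.0056). The auxin-induced genes GH3.3, IAA5 and LBD29 rose with IAA in both genotypes, LBD29 by 5.31 on the log2 scale in *siz1-2* and by 5.41 in Col-0, and IAA5 by 4.68 and 4.32 in the same order. GH3.3 rose by 5.76 in *siz1-2* and by 8.82 in Col-0, a difference that passed (−3.06, adjusted p = 2.3e-05). Its mean was 766 FPKM in *siz1-2* and 710 FPKM in Col-0 with IAA, and 13.8 FPKM in *siz1-2* and 1.07 FPKM in Col-0 on MS, a log2 fold change between genotypes of 3.17 without IAA (adjusted p = 9.5e-08). All 12 root cell type markers reached 1 FPKM in every library. One library stood apart. In Col-0 IAA replicate 1, 1848 genes differed by over 1 log2 unit from the average of its 2 fellow replicates, against 54 to 536 genes in each of the other 11 libraries. In the same library the 13 markers of green tissue summed to 1070 FPKM, and in *siz1-2* IAA replicate 2 they summed to 840.2 FPKM. The other libraries had sums of 99.15 to 194.9 FPKM, except 251.7 FPKM in Col-0 IAA replicate 2, and 3 of these markers were at 0 in Col-0 MS replicate 2 and 2 in Col-0 MS replicate 3. At a limma adjusted p under 0.05, none of the 13 green markers rose with IAA in *siz1-2* (median log2 fold change 0.31). In Col-0 3 of 13 rose (median 1.96), and the difference of response passed for none of the 13. Over all tested genes 9.81% rose and 8.06% fell in *siz1-2*, and 9.09% rose and 8.21% fell in Col-0. Of the 12 root markers, 1 rose and 2 fell with IAA in *siz1-2*, and 4 fell in Col-0, and their summed FPKM was 318.7 to 406.2 in the libraries with IAA, against 388.4 to 475.6 in those on MS. The part of either list in the results was not tested. Values without Col-0 IAA replicate 1, or without both libraries richest in green markers, are given beside members and list counts whose call, count or sign they change. They are not given for every value, so a result printed without them was not always unaffected.

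The windows of 250 bases before the RefSeq gene start are shown for the 4 genes whose transcripts changed with IAA in both genotypes, because these are the members that moved. They were read from the RefSeq annotation of TAIR10.1 by gene ID, since the table itself carries no coordinates. DWF4 lies on the minus strand and its window is chr3:18817406-18817655, that of BR6OX1 is chr5:15598090-15598339 on the minus strand, that of BAS1 is chr2:11380213-11380462 on the plus strand, and that of ROT3 is chr4:17192508-17192757 on the minus strand. Capitals mark GAGACA, which is TGTCTC, a motif bound by auxin response factors, read on the opposite strand.
DWF4: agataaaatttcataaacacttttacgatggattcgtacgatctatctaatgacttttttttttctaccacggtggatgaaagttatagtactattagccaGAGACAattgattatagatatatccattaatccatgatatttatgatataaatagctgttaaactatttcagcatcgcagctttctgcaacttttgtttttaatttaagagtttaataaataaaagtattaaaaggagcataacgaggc
BR6OX1: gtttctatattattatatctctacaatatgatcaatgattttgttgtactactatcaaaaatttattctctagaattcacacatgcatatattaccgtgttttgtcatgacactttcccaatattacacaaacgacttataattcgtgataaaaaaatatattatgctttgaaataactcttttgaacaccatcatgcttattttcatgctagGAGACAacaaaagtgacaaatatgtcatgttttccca
BAS1: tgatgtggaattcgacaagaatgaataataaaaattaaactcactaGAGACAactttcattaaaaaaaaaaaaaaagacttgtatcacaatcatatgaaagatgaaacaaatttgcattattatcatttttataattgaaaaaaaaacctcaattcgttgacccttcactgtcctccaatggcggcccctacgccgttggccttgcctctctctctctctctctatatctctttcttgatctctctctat
ROT3: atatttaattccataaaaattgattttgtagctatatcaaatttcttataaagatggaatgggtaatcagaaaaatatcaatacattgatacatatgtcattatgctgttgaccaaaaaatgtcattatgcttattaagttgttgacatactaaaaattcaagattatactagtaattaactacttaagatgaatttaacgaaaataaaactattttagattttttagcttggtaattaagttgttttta

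On both strands of these windows 5 motifs were searched: TGTCTC and TGTCGG, bound by auxin response factors, CGTGCG and CGTGTG, bound by BZR1 and BES1, and the G-box CACGTG, which overlaps CGTGTG where it is followed by TG. TGTCTC stood at position −149 from the start in DWF4, at −37 in BR6OX1 and at −204 in BAS1, and 10.9% of 27443 protein-coding genes had it in a window of this length. No other motif of the 5 was found in the 250-base windows of the 8 genes, and TGTCTC was not in those of the other 5. In windows of 1000 bases TGTCTC was found in DET2, DWF4, ROT3, BR6OX1 and BAS1, and in 39.6% of all genes. CGTGCG was found there in DWF4 at −458 and in CYP90D1 at −801, with 5.1% of all genes holding it. ROT3 had CGTGTG at −413, a motif in 17.2% of all genes, and BR6OX1 had TGTCGG at −909, in 14.6%. CPD and BR6OX2 held none of the 5 motifs within 1000 bases. DWF4 and BAS1 were higher with IAA and BR6OX1 was lower, so members with TGTCTC near the start moved in both directions.

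With IAA, 4 of the 8 genes changed in *siz1-2* and the same 4 changed in Col-0, each in the same direction in both genotypes. DWF4 and BAS1 rose, and ROT3 and BR6OX1 fell. A gene was called at a limma adjusted p under 0.05, and by this rule 17.9% of all tested genes changed with IAA in *siz1-2* and 17.3% in Col-0. The median log2 fold change over the 8 genes was −0.14 in *siz1-2* and −0.30 in Col-0, and over all tested genes it was 0.10 and −0.02 in that order of genotypes. The Col-0 median of the 8 genes was 0.05 without Col-0 IAA replicate 1, so its sign rests on that library, and the *siz1-2* median was −0.24 to −0.23 under 3 other scalings of the libraries.

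DET2, which acts early in the pathway, was at 14.3, 19.3 and 15.7 FPKM in *siz1-2* with IAA and at 19.3, 19.0 and 22.3 FPKM in *siz1-2* on MS. Col-0 had 26.6, 21.4 and 22.3 FPKM with IAA and 27.1, 26.7 and 31.3 FPKM on MS. The Col-0 libraries with IAA all lay below those on MS, narrowly in replicate 1, and the *siz1-2* groups overlapped. Its log2 fold change was −0.30 (95% interval −0.59 to 0.00, adjusted p = 0.16) in *siz1-2* and −0.27 (−0.57 to 0.02, adjusted p = 0.2) in Col-0, and neither passed. Without both libraries richest in green markers the *siz1-2* value was −0.42 and passed (adjusted p = 0.026). The gene overlaps AT2G38040 on the other strand, which fell by 0.69 on the log2 scale in Col-0, and no source used here says whether the authors counted reads by strand.

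DWF4 had the highest rise of the 8 genes. It was at 37.6, 46.2 and 53.2 FPKM in *siz1-2* with IAA, against 16.9, 18.9 and 14.7 FPKM in *siz1-2* on MS. Col-0 had 29.9, 51.2 and 44.9 FPKM with IAA, against 13.7, 15.0 and 13.3 FPKM on MS. All 6 libraries with IAA were above all 6 on MS, and the lowest of them was Col-0 IAA replicate 1. The mean with IAA was 2.71 times that on MS in *siz1-2*, a log2 fold change of 1.41 (SE 0.19, adjusted p = 0.00017). In Col-0 the ratio of means was 3.00 and the log2 fold change 1.52 (SE 0.19, adjusted p = 7.5e-05). Both calls held in each of 25 alternatives, with log2 fold changes of 1.29 to 1.54 in *siz1-2* and 1.36 to 1.74 in Col-0.

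CPD did not pass in either genotype. It was at 12.9, 14.8 and 10.9 FPKM in *siz1-2* with IAA and at 15.1, 14.2 and 17.4 FPKM in *siz1-2* on MS, and at 20.7, 17.5 and 16.8 FPKM in Col-0 with IAA and 16.3, 17.1 and 21.1 FPKM in Col-0 on MS. The groups overlapped in both genotypes. The 95% interval of its log2 fold change was −0.59 to 0.05 in *siz1-2* and −0.31 to 0.34 in Col-0. CPD overlaps AT5G05680 on the other strand, which rose by 0.64 in *siz1-2*.

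Of the C-23 hydroxylases, ROT3 fell in both genotypes and CYP90D1 passed in neither, and the difference between these genes was not tested. ROT3 was at 11.98, 12.7 and 10.5 FPKM in *siz1-2* with IAA, against 20.7, 17.9 and 17.9 FPKM in *siz1-2* on MS. In Col-0 it was at 10.8, 13.1 and 18.1 FPKM with IAA, against 25.1, 30.5 and 28.7 FPKM on MS. The libraries with IAA lay below those on MS in both genotypes, and within Col-0 the third library with IAA was the highest of its group. The fall of ROT3 was −0.66 as a log2 fold change in *siz1-2* (SE 0.17, adjusted p = 0.015), and −1.01 in Col-0 (SE 0.17, adjusted p = 0.0009). The *siz1-2* call was lost without *siz1-2* IAA replicate 3 (−0.59, adjusted p = 0.07) or *siz1-2* MS replicate 1 (−0.59, adjusted p = 0.066), and the Col-0 call held in each alternative. ROT3 overlaps AT4G36370 on the other strand, and that gene was not analysed here.

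CYP90D1 was at 13.0, 11.4 and 13.4 FPKM in *siz1-2* with IAA and at 12.6, 11.97 and 13.3 FPKM in *siz1-2* on MS. The Col-0 values were 4.53, 17.9 and 16.0 FPKM with IAA and 14.6, 14.5 and 14.5 FPKM on MS. The value of 4.53 FPKM belongs to the library that stands apart, and the other 2 Col-0 libraries with IAA were above all 3 on MS. The log2 fold change was −0.01 (95% interval −0.76 to 0.75) in *siz1-2* and −0.38 (−1.14 to 0.37) in Col-0, and neither passed. Without Col-0 IAA replicate 1 the Col-0 value was 0.21 (adjusted p = 0.21), so its sign rests on that library.

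Of the C-6 oxidases, BR6OX1 fell in both genotypes and BR6OX2 passed in neither, a difference that was not tested either. BR6OX1 was at 0.506, 0.468 and 1.27 FPKM in *siz1-2* with IAA, against 2.82, 3.20 and 2.75 FPKM in *siz1-2* on MS. In Col-0 it was at 0.450, 1.04 and 1.16 FPKM with IAA, against 3.94, 4.06 and 3.74 FPKM on MS. Every library with IAA was below every library on MS. Its log2 fold change was −1.51 in *siz1-2* (SE 0.26, adjusted p = 0.0013) and −1.71 in Col-0 (SE 0.26, adjusted p = 0.00045), the largest falls of the 8 genes. The mean with IAA was 0.256 times that on MS in *siz1-2* and 0.226 times in Col-0, and the log2 values understate this because 0.5 is added to a low FPKM. Both calls held in all 24 alternatives that tested the gene, with log2 fold changes of −1.96 to −1.20 in *siz1-2* and −2.12 to −1.40 in Col-0.

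BR6OX2 was at 15.2, 9.82 and 14.1 FPKM in *siz1-2* with IAA and at 10.8, 11.4 and 12.7 FPKM in *siz1-2* on MS. The Col-0 values were 3.88, 11.8 and 11.04 FPKM with IAA and 10.2, 9.92 and 10.3 FPKM on MS. As for CYP90D1, Col-0 IAA replicate 1 was far below and the other 2 were above the MS libraries. Its log2 fold change was 0.14 (95% interval −0.52 to 0.81) in *siz1-2* and −0.32 (−0.98 to 0.35) in Col-0, and 0.16 in Col-0 without that library (adjusted p = 0.51). The longest stretch that the BR6OX1 and BR6OX2 transcripts share exactly is 32 bases, and no other pair of the 8 genes shares over 18.

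BAS1, the inactivating hydroxylase, was at 12.7, 12.8 and 14.3 FPKM in *siz1-2* with IAA, against 7.94, 7.44 and 6.45 FPKM in *siz1-2* on MS. In Col-0 it was at 8.97, 10.3 and 11.4 FPKM with IAA, against 7.14, 7.12 and 8.001 FPKM on MS. The groups did not overlap in either genotype. BAS1 rose by 0.83 on the log2 scale in *siz1-2* (SE 0.14, adjusted p = 0.00091), where the mean with IAA was 1.83 times that on MS. In Col-0 it rose by 0.43 (SE 0.14, adjusted p = 0.044), with a ratio of means of 1.38. The Col-0 call was lost in 13 of 25 alternatives, among them the fit without any 1 of 10 libraries, each of the 12 except Col-0 IAA replicate 1 and *siz1-2* MS replicate 3 (0.35 to 0.49, adjusted p of 0.052 to 0.14). It was also lost with the replicate number as a block (adjusted p = 0.065) and in Col-0 alone (adjusted p = 0.18). Without both libraries richest in green markers the calls of the 4 genes held in both genotypes. DWF4 then had log2 fold changes of 1.39 in *siz1-2* and 1.74 in Col-0, ROT3 −0.72 and −0.84, BR6OX1 −1.36 and −1.46, and BAS1 0.85 and 0.52, in the same order of genotypes.

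**Figure D1:**
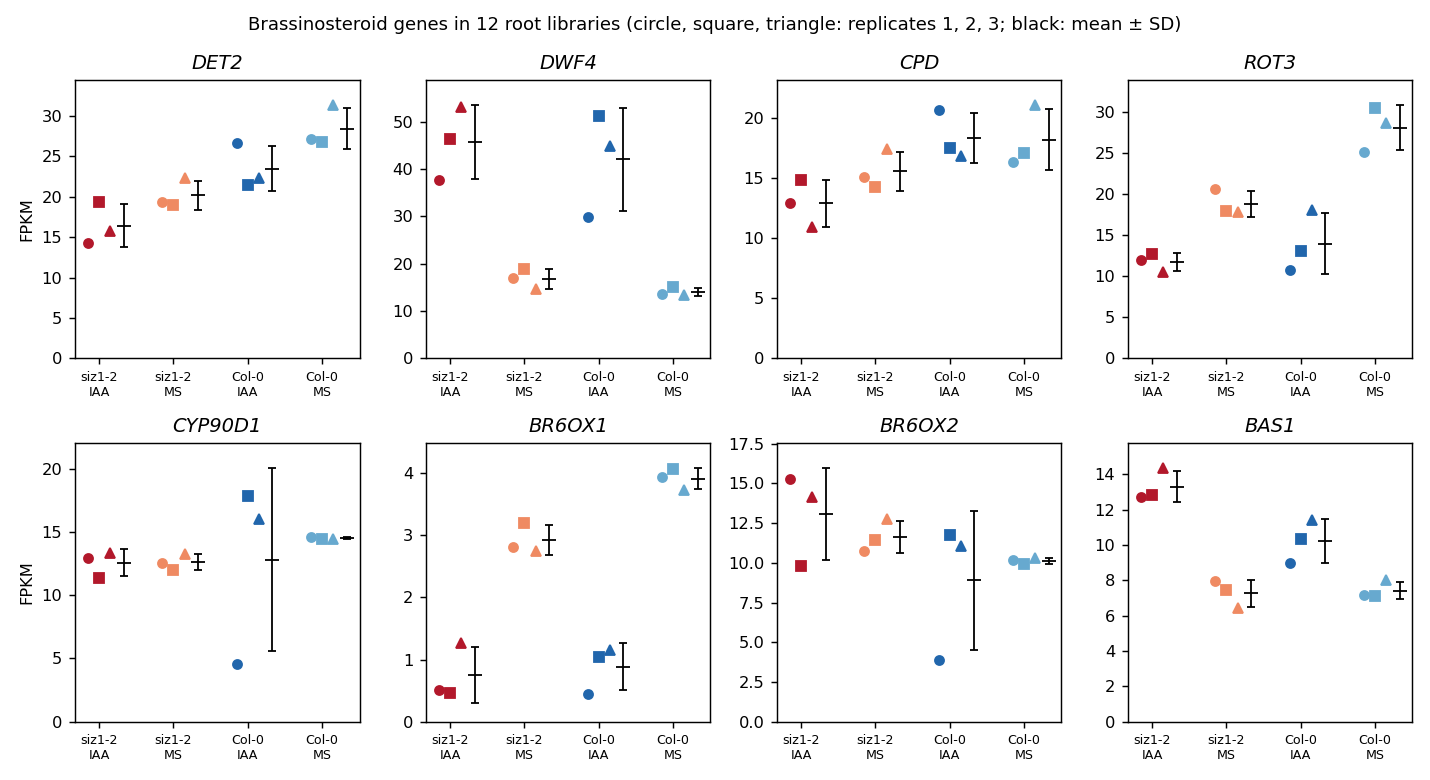
FPKM (vertical axis, from 0) of the 8 genes in each of the 12 libraries, by genotype and treatment on the horizontal axis. Symbols are the 3 replicates, and the black marks are the group mean and SD. The 6 libraries with IAA lie above the 6 on MS for DWF4 and below them for BR6OX1, and the lone low circles in the CYP90D1 and BR6OX2 panels are Col-0 IAA replicate 1, at 4.53 and 3.88 FPKM.

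The response to IAA was then compared between the genotypes, as the difference of the log2 fold changes, *siz1-2* minus Col-0. None of the 8 genes passed (limma adjusted p of 0.45 to 0.97), and none had an unadjusted p under 0.05. Among all tested genes 3 passed at the adjusted threshold, or 0.016%, and the share with an unadjusted p under 0.05 was not computed. BAS1 had the smallest p of the 8, with a difference of 0.40 (95% interval −0.02 to 0.81), and ROT3 had 0.35 (−0.16 to 0.86). DWF4 had −0.11 (−0.68 to 0.46) and BR6OX1 0.20 (−0.59 to 0.99). With 1 library left out, BAS1 ran over 0.31 to 0.48 and ROT3 over 0.19 to 0.55, the lowest without Col-0 IAA replicate 1 and the highest without Col-0 IAA replicate 3. DWF4 ran over −0.34 to 0.05 and turned sign without Col-0 IAA replicate 2 (0.05) or *siz1-2* IAA replicate 1 (0.02), and BR6OX1 ran over −0.08 to 0.36 and turned sign without Col-0 IAA replicate 1 (−0.05) or *siz1-2* IAA replicate 3 (−0.08). These intervals leave room for differences of response of the size of the smaller called changes, so the test does not show that the responses were alike. CYP90D1 and BR6OX2 had 0.38 (−0.69 to 1.44) and 0.46 (−0.48 to 1.40), which became −0.22 and −0.02 without Col-0 IAA replicate 1.

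**Figure D2:**
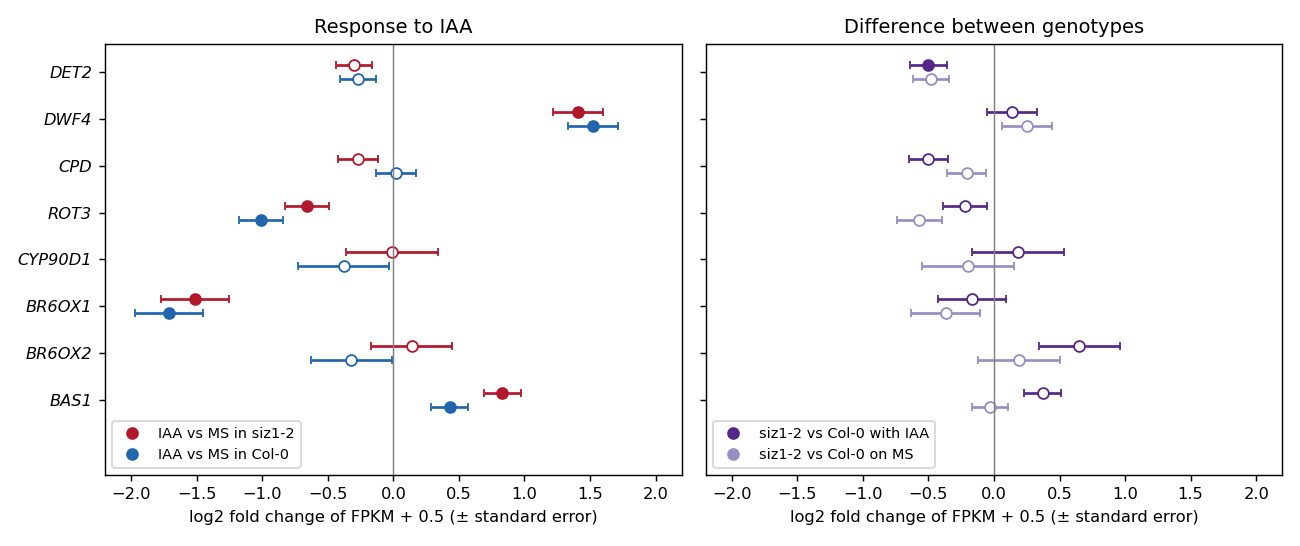
Log2 fold changes of FPKM + 0.5 with their standard errors (horizontal axis) for the 8 genes, with IAA against MS on the left and *siz1-2* against Col-0 on the right. Filled points have a limma adjusted p under 0.05. DWF4 at 1.41 and 1.52 and BR6OX1 at −1.51 and −1.71 lie far from 0 in both genotypes, and DET2 with IAA, at −0.50, is the only filled point between the genotypes.

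Between the genotypes on MS, none of the 8 genes passed at a limma adjusted p under 0.05, where 5.30% of all tested genes passed. An unadjusted p under 0.05 was found for 2 of the 8, and the share of all tested genes at that threshold was not computed. DET2 averaged 20.2 ± 1.81 FPKM in *siz1-2* and 28.4 ± 2.54 FPKM in Col-0 on MS (SD, n = 3 each), a log2 fold change of −0.48 (SE 0.14, limma adjusted p = 0.065). ROT3 averaged 18.8 ± 1.59 FPKM in *siz1-2* and 28.1 ± 2.74 FPKM in Col-0, a log2 fold change of −0.57 (SE 0.17, adjusted p = 0.073). For both, all 3 *siz1-2* libraries on MS were below all 3 of Col-0. Both passed when only the MS libraries were fitted (adjusted p of 0.031 for DET2 and 0.019 for ROT3) and without Col-0 IAA replicate 1 (0.023 and 0.016), or without both libraries richest in green markers (0.015 and 0.02), and without Col-0 IAA replicate 3 ROT3 passed (0.024). The fold changes stayed at −0.48 and −0.57. Over all tested genes 1640 of 18743, 2177 of 18691, 1986 of 18612 and 1058 of 18683 passed in these fits, in that order. With all libraries 994 of 18743 passed. BR6OX1 at 2.92 ± 0.240 FPKM in *siz1-2* and 3.91 ± 0.165 FPKM in Col-0 also had groups that did not overlap, at a log2 fold change of −0.37 (adjusted p = 0.48). CYP90D1 (−0.20, adjusted p = 0.8) and BR6OX2 (0.19, adjusted p = 0.77) had separate groups as well, and DWF4 (0.25), CPD (−0.21) and BAS1 (−0.03) had groups that overlapped. The share of all tested genes with separate groups was not computed, here or in the other comparisons. Separate groups are thus a description only and not a result about these genes.

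With IAA, DET2 was the 1 member of the 8 that passed between the genotypes, where 9.12% of all tested genes passed. It averaged 16.4 ± 2.61 FPKM in *siz1-2* and 23.4 ± 2.79 FPKM in Col-0 with IAA (SD, n = 3 each), and was lower in *siz1-2* by a log2 fold change of −0.50 (SE 0.14, limma adjusted p = 0.038). The call was lost in 15 of 26 alternatives, with adjusted p between 0.026 and 0.16 over all of them, and the value stayed between −0.62 and −0.41. Among these were the fits without Col-0 IAA replicate 1 (−0.41, adjusted p = 0.072), without *siz1-2* IAA replicate 1 (−0.41, 0.16) and without *siz1-2* IAA replicate 3 (−0.48, 0.13). It was also lost without Col-0 IAA replicate 3, Col-0 MS replicate 2, *siz1-2* MS replicate 1 or *siz1-2* MS replicate 2 (adjusted p of 0.05 to 0.057). AT2G38040, the gene on the other strand, had a log2 fold change of 0.25 in the same comparison. On MS it averaged 59.9 ± 5.49 FPKM in *siz1-2* and 74.1 ± 9.46 FPKM in Col-0, and so was lower in *siz1-2*, as DET2 was. Whether its reads entered the DET2 values was not tested.

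CPD, with 12.9 ± 1.96 FPKM in *siz1-2* and 18.4 ± 2.07 FPKM in Col-0 with IAA, had the same log2 fold change of −0.50 and missed the threshold (SE 0.15, adjusted p = 0.055), passing only without Col-0 MS replicate 3 (0.048). BAS1 averaged 13.3 ± 0.894 FPKM in *siz1-2* and 10.2 ± 1.22 FPKM in Col-0 with IAA, at 0.37 (SE 0.14, adjusted p = 0.11). In DET2, CPD and BAS1 the libraries of the genotypes did not overlap, and the share of all tested genes with such groups was not computed. BR6OX2 averaged 13.1 ± 2.87 FPKM in *siz1-2* and 8.90 ± 4.36 FPKM in Col-0, at 0.65 (95% interval −0.02 to 1.31), and at 0.17 without Col-0 IAA replicate 1. CYP90D1 averaged 12.6 ± 1.06 FPKM in *siz1-2* and 12.8 ± 7.21 FPKM in Col-0, at 0.18 (−0.57 to 0.93). Without that library the CYP90D1 value turned to −0.42 and passed (adjusted p = 0.033). DWF4 (0.14), ROT3 (−0.22) and BR6OX1 (−0.17) had overlapping groups, and the DWF4 value turned to −0.08 without Col-0 IAA replicate 1.

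FPKM is scaled by transcript length, so levels can be ordered across the 8 genes. In *siz1-2* with IAA, DWF4 was first at 45.7 ± 7.82 FPKM (SD, n = 3), and DET2 at 16.4, BAS1 at 13.3, BR6OX2 at 13.1, CPD at 12.9, CYP90D1 at 12.6 and ROT3 at 11.7 FPKM followed with ranges that overlapped from each to the next. In *siz1-2* on MS the order was DET2 (20.2), ROT3 (18.8), DWF4 (16.8), CPD (15.6), CYP90D1 (12.6), BR6OX2 (11.6), BAS1 (7.28) and BR6OX1 (2.92 FPKM). There the first 4 overlapped from each to the next, as did CYP90D1 and BR6OX2. In Col-0 with IAA, DWF4 was again first at 42.0 ± 10.9 FPKM, followed by DET2 (23.4), CPD (18.4), ROT3 (14.0), CYP90D1 (12.8), BAS1 (10.2) and BR6OX2 (8.90). DWF4, DET2 and CPD had ranges apart from each other, and from CPD to BR6OX2 each overlapped with the next. With that group’s replicate 1 left out, the places of ROT3 and CYP90D1, and those of BAS1 and BR6OX2, were exchanged, with means of 16.9 FPKM for CYP90D1, 15.6 for ROT3, 11.4 for BR6OX2 and 10.9 for BAS1. In Col-0 on MS the order was DET2 (28.4), ROT3 (28.1), CPD (18.2), CYP90D1 (14.5), DWF4 (14.0), BR6OX2 (10.12), BAS1 (7.42) and BR6OX1 (3.91 FPKM), and only DET2 and ROT3, and CYP90D1 and DWF4, overlapped with their neighbours. BR6OX1 was the lowest of the 8 in all 4 groups, at 0.747 ± 0.452 FPKM in *siz1-2* and 0.883 ± 0.380 FPKM in Col-0 with IAA.

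Ratios within a library do not depend on how the libraries were scaled, and 4 of them were picked after the values were seen and are given with no test. DWF4 over ROT3 was 3.14, 3.64 and 5.05 in *siz1-2* with IAA, against 0.82, 1.06 and 0.82 in *siz1-2* on MS. In Col-0 it was 2.77, 3.91 and 2.48 with IAA, against 0.54, 0.49 and 0.46 on MS. The ratio was thus above all MS values in every library with IAA, the one that stands apart included. BR6OX2 over BR6OX1 was 30.15, 20.99 and 11.15 in *siz1-2* with IAA, against 3.82, 3.57 and 4.62 in *siz1-2* on MS, and 8.62, 11.28 and 9.55 in Col-0 with IAA, against 2.58, 2.44 and 2.75 in Col-0 on MS. In Col-0 IAA replicate 1 both C-6 oxidases were low together, and their ratio was near that of the other 2 libraries of the group. DWF4 over BAS1 was 2.95, 3.60 and 3.71 in *siz1-2* with IAA, against 2.12, 2.55 and 2.28 in *siz1-2* on MS, and 3.34, 4.96 and 3.94 in Col-0 with IAA, against 1.92, 2.11 and 1.66 in Col-0 on MS. ROT3 over CYP90D1 was 0.92, 1.12 and 0.79 in *siz1-2* with IAA, against 1.35 to 1.64 on MS, and 2.38, 0.73 and 1.13 in Col-0 with IAA, against 1.72, 2.11 and 1.99 on MS, where the first library with IAA lay above the MS values and the other 2 below.

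**Figure D3:**
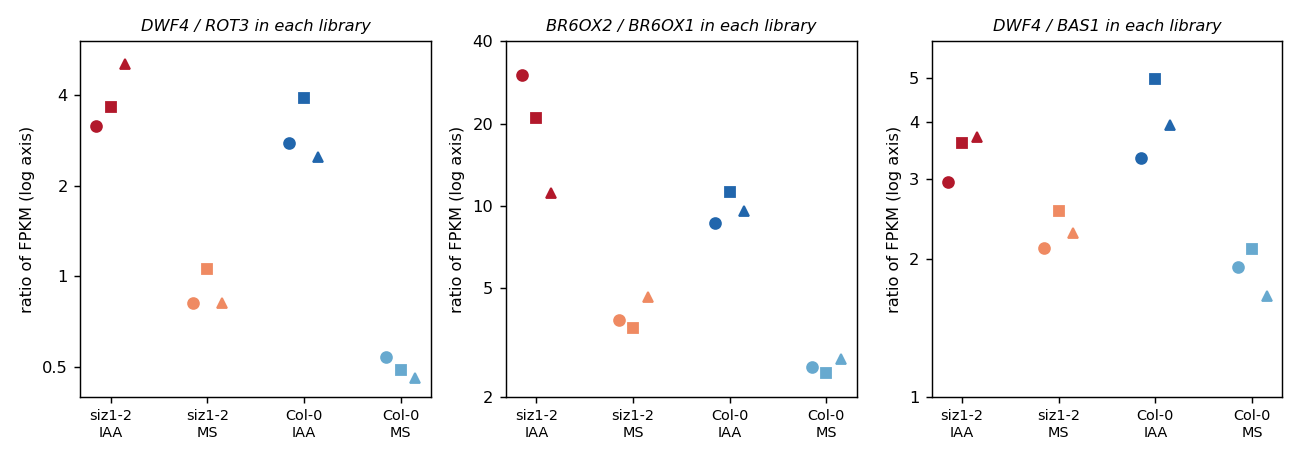
Ratio of FPKM between 2 genes of the same library (vertical log axes) for DWF4 over ROT3, BR6OX2 over BR6OX1 and DWF4 over BAS1, by group, with 1 symbol per replicate. Each library with IAA lies above each library on MS of its genotype, from 2.48 to 5.05 against 0.46 to 1.06 for DWF4 over ROT3.

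Other genes tied to brassinosteroids or sterols were taken from 5 lists, given by their counts and medians. Over all tested genes 9.81% rose and 8.06% fell with IAA in *siz1-2*, and 9.09% rose and 8.21% fell in Col-0. Of 8 further genes listed under brassinosteroid inactivation 5 passed the filter. In *siz1-2* with IAA 2 of the 5 rose and none fell (median 0.54), and in Col-0 3 rose and none fell (median 0.67), or 2 without Col-0 IAA replicate 1. CYP72C1, a P450 related to BAS1, was at 18.6, 18.2 and 22.7 FPKM in *siz1-2* with IAA and at 3.09, 4.43 and 1.83 FPKM on MS, a rise of 2.55 (adjusted p = 5.2e-05), and averaged 16.2 ± 3.55 FPKM in Col-0 with IAA and 3.47 ± 1.36 FPKM on MS, a rise of 2.12 (adjusted p = 0.00023). BEN1, a reductase-like protein that lowers brassinosteroid levels, averaged 52.4 ± 4.32 FPKM in *siz1-2* with IAA and 21.5 ± 2.28 on MS, and 64.6 ± 8.22 FPKM in Col-0 with IAA and 22.0 ± 2.01 on MS, with log2 fold changes of 1.27 and 1.53. Both genes rose in every alternative in both genotypes. BIA1, an acyltransferase, rose in Col-0 (0.55, adjusted p = 0.048) and had 0.43 in *siz1-2*, where it did not pass, and the Col-0 call was lost in 17 of 24 alternatives, each left-out Col-0 library on MS among them. The glycosyltransferases UGT73C5 and UGT73C6 reached at most 0.862 and 0.680 FPKM. CYP724A1, a listed gene for which no inactivating role is claimed here, reached at most 0.084 FPKM.

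All 15 genes of the sterol list passed the filter, and not all of them lie on the route to brassinosteroids. In *siz1-2* 1 rose and 4 fell (median −0.29), against 9.81% and 8.06% of all tested genes, and in Col-0 2 rose and 2 fell (median −0.18), against 9.09% and 8.21%. Without Col-0 IAA replicate 1 the counts were 2 and 8 in *siz1-2* and 2 and 7 in Col-0. More genes passed in that fit as a whole. In *siz1-2* 3347 of 18691 tested genes rose and 2135 fell, against 1839 and 1510 of 18743 with all libraries. In Col-0 2357 rose and 1570 fell, against 1703 and 1538. SMT3, a sterol methyltransferase of the branch to sitosterol, averaged 54.1 ± 2.14 FPKM in *siz1-2* with IAA and 94.2 ± 13.5 on MS, and 67.6 ± 15.9 FPKM in Col-0 with IAA and 118 ± 7.57 on MS (log2 fold changes of −0.79 and −0.83). SMO1-1, a sterol C-4 methyl oxidase, averaged 69.8 ± 12.3 FPKM in *siz1-2* with IAA and 32.6 ± 1.06 on MS, and 46.8 ± 2.61 FPKM in Col-0 with IAA and 30.5 ± 1.03 on MS (1.07 and 0.61). CAS1, the cycloartenol synthase, fell by 0.68 in Col-0, and the sterol reductase FK and the methyltransferase SMT1 fell by 0.42 and 0.32 in *siz1-2*. The FK call was lost without *siz1-2* IAA replicate 3 or *siz1-2* MS replicate 1 or 2, and the SMT1 call without *siz1-2* IAA replicate 1 or 3 or *siz1-2* MS replicate 1. SQE1, a squalene epoxidase, rose by 0.40 in Col-0, a call lost in 15 of 24 alternatives, each left-out Col-0 library on MS among them.

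Of 16 receptor and signaling genes 14 passed the filter. With IAA 6 rose and none fell in *siz1-2* (median 0.34), and 3 rose and none fell in Col-0 (median 0.19), where 9.81% and 9.09% of all tested genes rose in that order of genotypes. Median centring of the libraries changed the *siz1-2* counts to 4 and 1. Without Col-0 IAA replicate 1 the number that rose in Col-0 was 4, in a fit where 2357 of 18691 tested genes rose. BRL3, a receptor kinase related to BRI1, averaged 32.3 ± 2.37 FPKM in *siz1-2* with IAA and 6.90 ± 0.912 on MS, a rise of 2.15 (adjusted p = 1.1e-06). In Col-0 it averaged 37.6 ± 6.31 FPKM with IAA and 5.31 ± 1.02 on MS, a rise of 2.71 (adjusted p = 1e-07). The related receptor BRL1 rose by 1.08 in *siz1-2* and by 0.68 in Col-0, and BKI1, the inhibitor of BRI1, rose by 0.75 and 0.78 in that order. The *siz1-2* call of BKI1 was lost without replicate 2 or 3 of either treatment, its Col-0 call without Col-0 IAA replicate 3 or Col-0 MS replicate 2 or 3, and the Col-0 call of BRL1 without Col-0 MS replicate 2. The Col-0 calls of BKI1 and BRL1 were also lost when only the compared groups were fitted. BZR1 and BES1 rose in *siz1-2* by 0.54 and 0.51, and both calls were lost under median centring and median-of-ratios factors, that of BES1 also under quantile normalization.

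Of 13 brassinosteroid-responsive genes 11 passed the filter. In *siz1-2* 2 rose and 1 fell (median 0.17), against 9.81% and 8.06% of all tested genes, and in Col-0 4 rose and 1 fell (median 0.23), against 9.09% and 8.21%. Without Col-0 IAA replicate 1 the *siz1-2* counts were 4 and 1 of 10 tested (median 0.10), and median centring lowered the *siz1-2* median to 0.06. In the fit without that library 3347 of all 18691 tested genes rose and 2135 fell in *siz1-2*, against 1839 and 1510 of 18743 with all libraries. TCH4, a xyloglucan endotransglucosylase that acts on the cell wall, averaged 34.7 ± 3.78 FPKM in *siz1-2* with IAA and 3.00 ± 0.942 on MS, and 37.8 ± 5.55 FPKM in Col-0 with IAA and 3.51 ± 1.11 on MS (log2 fold changes of 3.37 and 3.29). EXO, a cell wall protein tied to growth, rose by 2.45 in *siz1-2* and by 2.56 in Col-0. PAR1, a helix-loop-helix protein that limits elongation, fell by 0.84 in *siz1-2* and by 1.34 in Col-0. BEE1, a helix-loop-helix factor, rose by 1.12 in Col-0 and had 0.59 in *siz1-2*, where it did not pass. Of 5 genes listed as regulators, which need not act on the synthesis genes, BRX and BRAVO passed the filter. BRAVO, a MYB factor known from the quiescent centre, rose in *siz1-2* by 1.14 (adjusted p = 0.0052) and had 0.40 in Col-0, where neither gene passed. Without Col-0 IAA replicate 1 both rose in Col-0, where 2357 of 18691 tested genes rose in that fit.

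The difference of response between the genotypes passed for no gene of the 5 lists, and 1 gene each of the sterol, signaling, regulator and responsive lists had an unadjusted p under 0.05. The share of all tested genes at that unadjusted threshold was not computed. Between the genotypes on MS, PRE3, a helix-loop-helix protein, was the 1 listed gene that passed, higher in *siz1-2* by 0.56 (adjusted p = 0.0099), a call lost without Col-0 MS replicate 2. Without Col-0 IAA replicate 1, 1 sterol gene, 1 signaling gene and 2 responsive genes were also called on MS, all lower in *siz1-2*, and the counts were the same without both libraries richest in green markers. Over all tested genes 1357 of 18691 and 1222 of 18612 were lower in *siz1-2* in these fits, in that order. With all libraries 478 of 18743 were lower. With IAA, SMO1-1 was higher in *siz1-2* by 0.56 (adjusted p = 0.012) and PRE6 was lower, at −1.03 (adjusted p = 0.018). The call of SMO1-1 was lost without *siz1-2* IAA replicate 3 or when only the compared groups were fitted. A further inactivation gene was called, lower in *siz1-2*, without Col-0 IAA replicate 1, where 1322 of 18691 tested genes were lower. PRE6 lost its call without Col-0 IAA replicate 2, and without the first or the second *siz1-2* library with IAA.

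**Figure D4:**
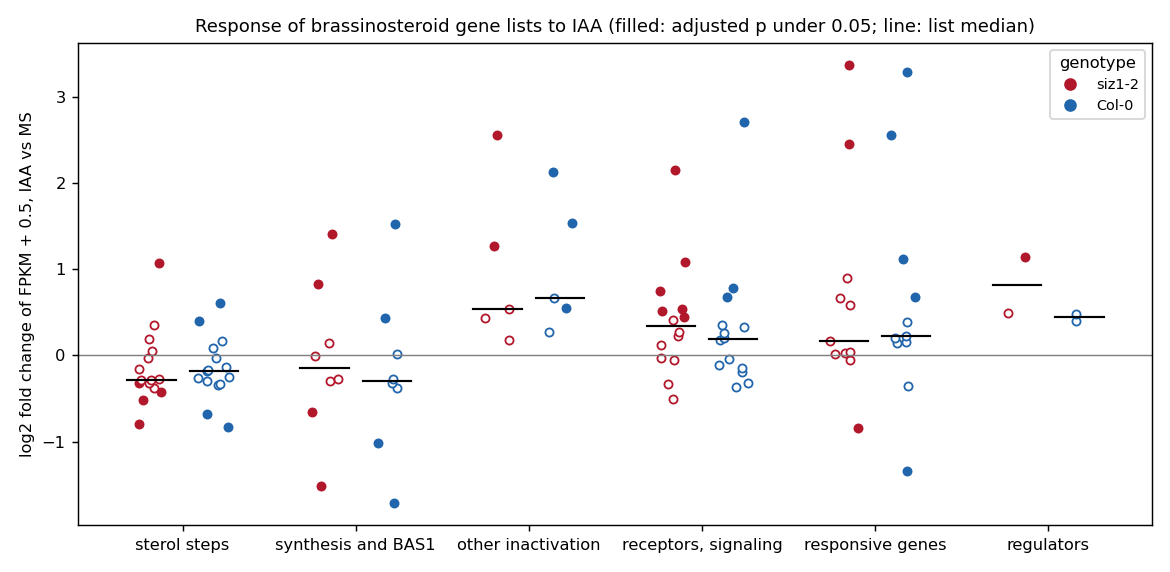
Log2 fold change of FPKM + 0.5 with IAA against MS (vertical axis) for each tested gene of 6 lists in *siz1-2* and Col-0. Filled points have a limma adjusted p under 0.05, and black lines are list medians. The other inactivation genes have no point below 0 among those filled, with CYP72C1 highest at 2.55 and 2.12, while the synthesis genes with BAS1 spread from −1.71 to 1.52.

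The genes whose profile over the 12 libraries was most like that of a changed member were found, as a description with no test, by the root mean square difference of centred log2 values, among 13593 genes with a mean of at least 5 FPKM. DWF4 was nearest to FAR4 (0.16), IAA9 (0.17) and SNRK2.9 (0.17), and ROT3 to AMP1 (0.12), AT1G05170 (0.13) and ABF3 (0.15). BR6OX1 was nearest to AT3G21680 (0.26), AT3G05150 (0.27) and AT1G56630 (0.28). BAS1 was nearest to AT3G12620 (0.07), emb2742 (0.09) and AT1G26190 (0.11), and DET2 to CINV1 (0.12), SPP1 (0.13) and AT1G11360 (0.14). Among the 8 genes themselves the closest profiles were those of DET2 and CPD (0.15) and of CYP90D1 and BR6OX2 (0.25), while the member nearest to DWF4 was BAS1 (0.46), and BR6OX1 was at 0.49 from ROT3.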

How the data were processed

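The values are the FPKM per gene that the authors deposited, 1 column for each of 12 libraries, computed by their sequencing provider. The aligner, annotation and genome build were not given in the sources used here. Read counts were not used, so absolute depth is unknown. FPKM summed to 581254 to 636309 per library, and relative depth, read from the steps of low values, was 0.896 to 1.032 of Col-0 MS replicate 1. Groups came from the labels' titles and characteristics.

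Means of the 4 groups were fitted to log2(FPKM + 0.5) of the 18743 genes that reached 1 FPKM in 3 or more libraries, with limma 3.58.1 in R 4.3.3 (variance trend, Benjamini-Hochberg adjustment within each of 5 contrasts over all genes tested), and was tested on simulated data. The paper names no test for the RNA-seq. Other work used Python 3.11.15, numpy 2.4.6, pandas 2.3.3 and matplotlib 3.10.9, and statmod 1.5.0 was loaded beside limma. The replicate block was fitted as fixed terms of the model. Names, gene starts and sequences came from RefSeq TAIR10.1, where all 8 genes were matched by ID. No protein was printed. The members and lists were chosen with earlier results of these data known. Named were all 8 genes, from each other list and contrast at most the 4 called genes with the smallest p, and the 3 nearest profiles of called members. COG1 was left out of the regulators because RefSeq gives that name to another gene.

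Same-numbered libraries of *siz1-2* and Col-0 on MS deviated together weakly (correlations of 0.119, 0.203 and 0.337). The labels state no pairing, and these values do not establish one. With the replicate block no member passed on MS, as without it. Alternatives were other pseudocounts, filters, scalings and variance settings, a fold limit, only the compared groups, the block, and libraries left out.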

Additional observations from a re-analysis of the deposited data

How the results depend on the processing

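Of 1011 alternative values of the members' fold changes, 969 kept their side of the threshold, and the direction wherever there was a call, 32 lost a call, 9 gained one and 1 gained one with the opposite sign. The calls of DWF4 and BR6OX1 in both genotypes held in all alternatives that tested them, and BR6OX1 was not tested under a filter of 5 FPKM. With a required absolute log2 fold change of 1, the members called with IAA in *siz1-2* numbered 2 in place of 4. Over all tested genes 1096 of 18743 were then called, in place of 3349. Between the genotypes on MS, 2 members passed in place of 0 when only the compared groups were fitted or without the libraries richest in green markers, and 0 to 2 with 1 library left out. Over all tested genes 1640 and 1986 passed there, in that order, and 531 to 2177 with 1 library left out, against 994 with all libraries. Between the genotypes with IAA, 0 passed in place of 1 under quantile normalization, median centring, median-of-ratios factors, without the trend, with only the compared groups, with the replicate block, with the block within each treatment (chosen after seeing the data) and with the fold limit, and 0 to 2 with 1 library left out. With the settings of the results, 1709 of all 18743 tested genes passed in that comparison. The count was 2011 under quantile normalization, 1707 under median centring, 1754 under median-of-ratios factors and 1605 without the trend. It was 912 with only the compared groups, 1499 with the replicate block and 1379 with the block within each treatment. The fold limit left 604, and 862 to 2075 passed with 1 library left out. CYP90D1 in that comparison reversed to −0.42 without Col-0 IAA replicate 1, over a range of −0.42 to 0.52 with 1 library left out. The cause was not tested for these changes.

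Apart from the groups on MS, same-numbered libraries did not deviate together in every pair (−0.139, −0.102 and −0.009 for the treatments in Col-0, 0.282, 0.013 and 0.019 for those of *siz1-2*, and −0.279, −0.273 and 0.057 for the genotypes with IAA). No pairing is established for these groups either. The replicate block changed no member call other than those of BAS1 in Col-0 and DET2 with IAA. With only the compared groups no difference of response was fitted, because it needs all 4. FPKM keeps no counts, so the error of low values such as those of BR6OX1 is unknown.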
